A study of Mus musculus with 22 samples.

Results

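The 32 genes described here were taken to represent the local nerve cells, or interneurons, of the spinal cord. They were chosen by name as transmitter genes, dorsal horn peptides and lineage factors, 16 for excitatory and 16 for inhibitory neurons, from the 38924 gene IDs in the files. All 32 passed the low-count filter and were among the 16974 genes tested. Not all are confined to interneurons: Slc6a9 is found largely on glia, and other cell types also make Maf. The class of each gene was assigned by name and was not tested here, so excitatory and inhibitory members refer to these lists. Spinal cord RNA was sequenced from mice aged 7 months on a mixed B6N and B6J background. Yars, the gene for tyrosyl-tRNA synthetase, carried the E196K change on 1 allele in the heterozygotes (HET, 6 libraries), on both in the homozygotes (HOM, 10 libraries) and on none in the wild type (WT, 6 libraries). The labels name whole cord and no treatment, do not give the sex, and do not say in words that each library came from a separate mouse, so a p-value here reflects library-to-library spread, which may be technical. In whole tissue, fewer cells of a type and less RNA per cell cannot be told apart.

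Excitatory interneurons load glutamate into vesicles, and inhibitory interneurons make GABA, glycine or both. In the dorsal horn, where touch, itch and pain signals enter the cord, both kinds are divided further by the peptides they release and by the transcription factors that set their identity in the embryo. Many of these peptides modulate pain and itch. E196K is one of the changes known from a dominant inherited neuropathy of peripheral motor and sensory axons.

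The libraries summed to between 24448513 and 42805964 rounded counts, and none of the compared pairs of libraries agreed within sampling noise. Sample titles began with 39992 (1 WT and 5 HOM), 40411 (2 WT, 1 HET and 3 HOM) or 40412 (3 WT, 5 HET and 2 HOM), numbers that the labels do not explain. Xist, the RNA that coats the silenced X chromosome of female cells, was at 416 to 639.7 CPM (counts scaled to library size with TMM factors) in 13 libraries and at no more than 0.387 CPM in the other 9. The Y-linked gene Ddx3y was at 72.1 to 90.9 CPM in those 9 and at 0 in the 13. The library HOM 3 stood apart: it lay outside the range of the other 21 libraries for 29.4% of all tested genes, and it held the Schwann cell gene Prx at 500.0 CPM, where no other library exceeded 1.31 CPM. Cord neuron markers were present throughout, with their sum lowest in HOM 3. Of 11 sensory ganglion markers found in the files, 8 stayed below 1 CPM in every library.

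No member passed the test in any genotype comparison. With edgeR's quasi-likelihood test at a Benjamini-Hochberg adjusted p below 0.05, 0 of 32 members passed in HOM against WT, where 16 genes or 0.0943% of all those tested did. In HET against WT 0 members passed, against 0.0% of all genes. In HOM against HET 0 members passed, against 0.106% of all genes. A linear term for the number of E196K alleles also gave 0 members, against 0.1%, and 1 member, Pax2, at an unadjusted p below 0.05, against 6.89%. DESeq2, limma voom and limma-trend also gave 0 members in each of the 3 comparisons. At an unadjusted p below 0.05, 1 member stood in each comparison: Pax2 in HOM against WT, where 5.91% of all genes did, Grp in HET against WT (3.41%) and Nts in HOM against HET (8.79%). That is 3.12% of the members in each case. These counts moved with single libraries. With 1 library left out, HOM against WT held between 1 and 6 members, the latter without WT 1. HET against WT held between 1 and 3, the latter without HET 3 or HET 4. HOM against HET held 0 without HOM 5 or HOM 10 and 3 without HOM 2, HOM 9, HET 2 or HET 6.

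The intervals set limits on the size of differences that may be present. The 95% interval of the fold change lay within 1.5-fold in either direction for 31 of 32 members in HOM against WT, 30 in HET against WT and 31 in HOM against HET. Slc17a7 was outside in each comparison, and Grp was outside in HET against WT. A single fit over all 22 libraries gave these intervals. The HOM 3 value of Slc17a7, 0.0912 CPM, so also entered the Slc17a7 interval in HET against WT. The median log2 fold change of the 32 members was -0.01 in HOM against WT, 0.03 in HET against WT and -0.03 in HOM against HET, beside 0.01, 0.0 and 0.0 for all genes. HET and HOM were each compared with the same WT libraries. Excitatory members had a median of -0.01 in HOM against WT, with 8 of 16 above 0. Their median was 0.06 in HET against WT, with 14 of 16 above 0 beside 8802 of 16974 genes, and -0.08 in HOM against HET, with 4 of 16 above 0 beside 8998 genes. These last comparisons share the HET libraries. Inhibitory members had medians of -0.02, 0.0 and -0.02 in the 3 comparisons.

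**Figure D1:**
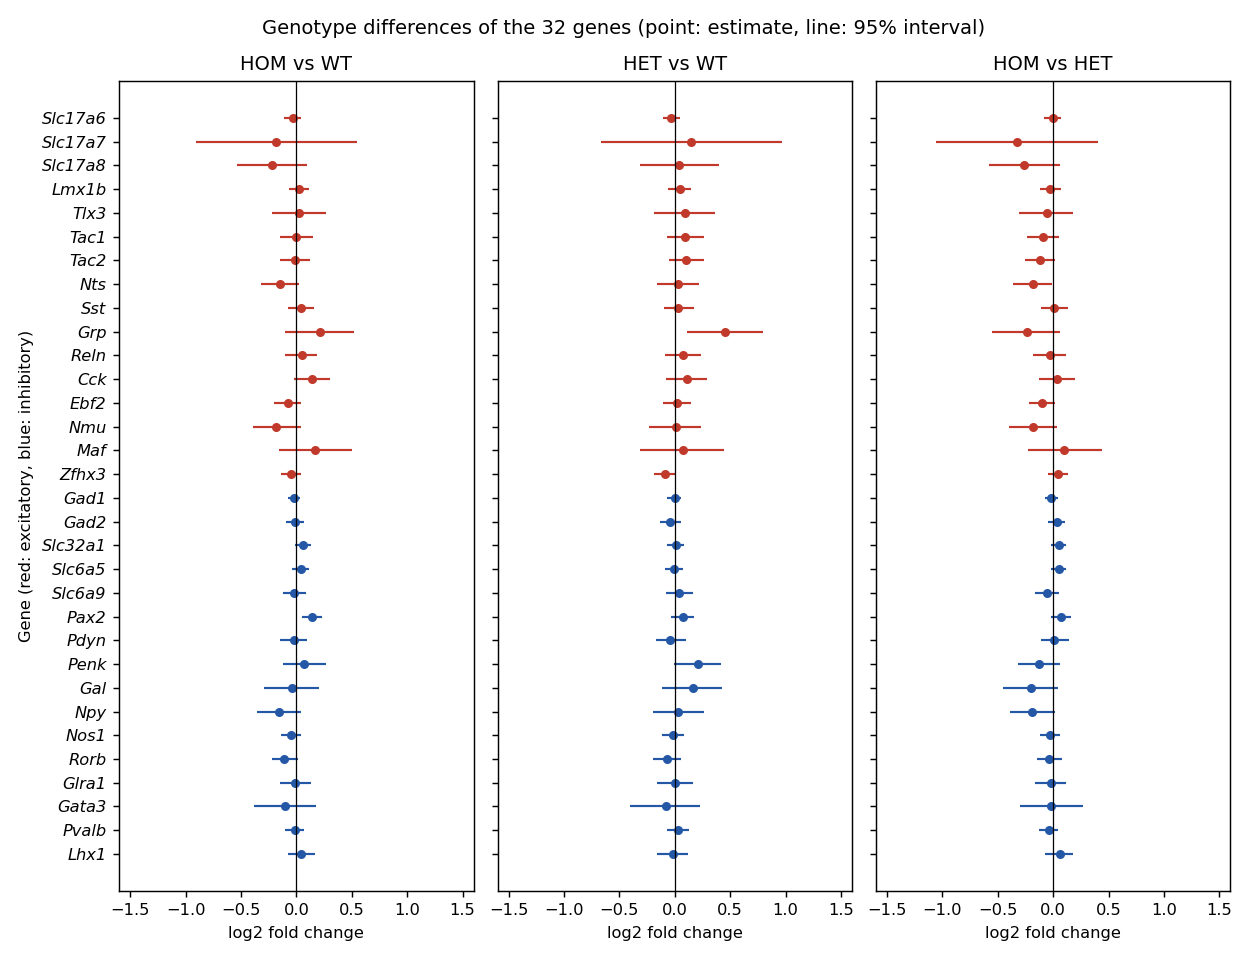
Log2 fold change (x axis) of each of the 32 genes (y axis; excitatory in red, inhibitory in blue) in the 3 genotype comparisons. Points are edgeR estimates from 22 libraries and lines are 95% intervals. Most intervals are narrow and cross 0, and Slc17a7 has the widest.

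Levels between genes were compared by the deposited TPM, which is scaled to transcript length, over the 6 WT libraries. The peptide gene Sst was highest at 349 ± 24.6 TPM (SD, n = 6). Slc17a8, a vesicular glutamate transporter of few neurons, was lowest at 0.753 ± 0.194 TPM. Of the 8 members above 100 TPM, 7 were inhibitory: Slc6a9, Penk, Glra1, Slc6a5, Pvalb, Slc32a1 and Gad1. Of the 8 below 10 TPM, 5 were excitatory. The order was not resolved in detail. Of the 31 pairs of neighbours in it, 9 had ranges over the WT libraries that did not overlap, among them Sst above Slc6a9, Penk above Glra1, and Gad1 above Slc17a6. Glra1, Slc6a5, Pvalb, Slc32a1 and Gad1 followed each other with overlapping ranges.

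**Figure D2:**
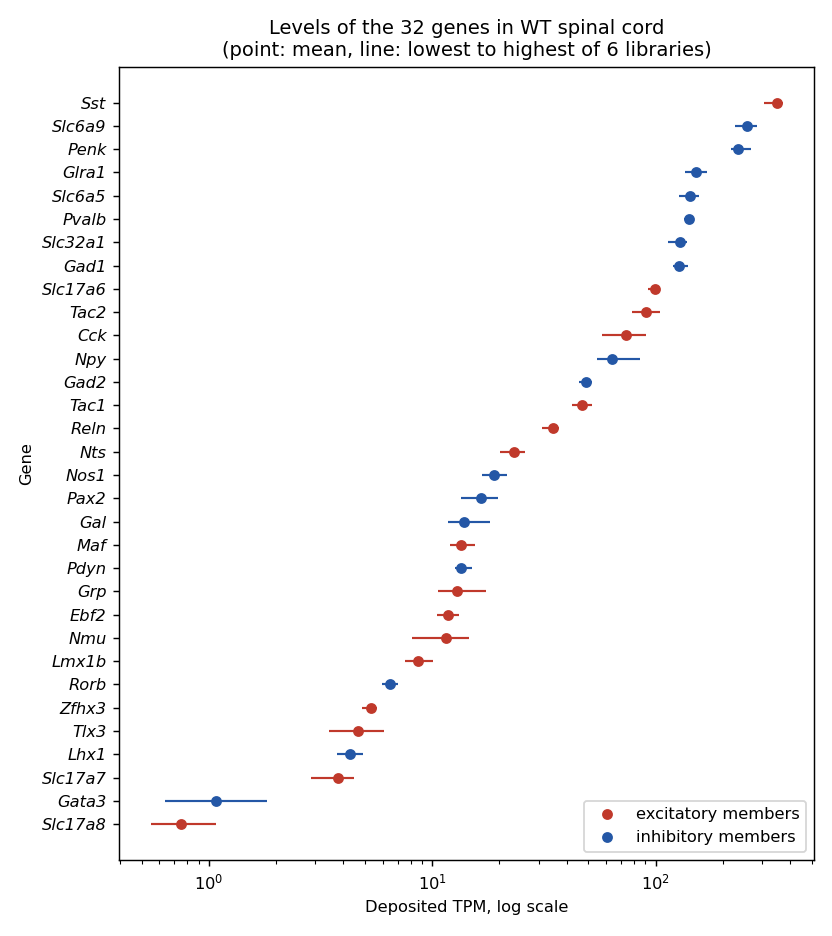
Deposited TPM on a log scale (x axis) of the 32 genes (y axis) in the 6 WT libraries. Points are means and lines run from the lowest to the highest library. The levels span from 0.753 TPM for Slc17a8 to 349 TPM for Sst. Inhibitory members (blue) make up 7 of the 8 above 100 TPM and reach down to 1.08 TPM for Gata3.

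Slc17a6 encodes the main vesicular glutamate transporter of spinal neurons. Its lowest, median and highest values were 221, 239 and 259 CPM in WT, 224, 234 and 252 CPM in HET, and 219.7, 229 and 255 CPM in HOM. The groups overlapped over nearly their whole ranges. HOM differed from WT by a log2 fold change of -0.03 (SE 0.0361, 95% interval -0.11 to 0.04, adjusted p = 0.863), and HET differed from WT by -0.03 (SE 0.0404, adjusted p = 1).

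Slc17a7 encodes the transporter found in the terminals of many sensory afferents and cortical axons. It was at 4.54 to 7.04 CPM in WT, 4.50 to 7.90 CPM in HET and 3.63 to 7.26 CPM in 9 HOM libraries. The library HOM 3 stood far below at 0.0912 CPM, which was 3 counts. The 95% interval of HOM against WT was the widest of the members, from -0.91 to 0.55 on the log2 scale. Slc17a8 had intervals from -0.54 to 0.10 in HOM against WT and -0.31 to 0.40 in HET against WT.

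Gad1 and Gad2 encode the enzymes that make GABA from glutamate. Gad1 had a lowest, median and highest value of 183, 189 and 204 CPM in WT, 187, 189.5 and 194 CPM in HET, and 172, 189.6 and 193 CPM in HOM. It was the most narrowly bounded member, with a log2 fold change of -0.02 in HOM against WT (SE 0.0262, 95% interval -0.08 to 0.03, adjusted p = 0.868). Gad2 had values of 129, 147 and 160.0 CPM in WT, 129.7, 143 and 155 CPM in HET, and 139, 144 and 156 CPM in HOM. Between HOM and WT its log2 fold change was -0.01 (SE 0.04, 95% interval -0.09 to 0.07, adjusted p = 0.973) and -0.04 in HET against WT (SE 0.0447, adjusted p = 1). The genotypes overlapped for both enzymes.

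Slc32a1 encodes the vesicular carrier for GABA and glycine, and Slc6a5 the carrier that returns glycine to the terminals of glycinergic neurons. Slc32a1 had a lowest, median and highest value of 182, 192 and 206 CPM in WT, 184, 195 and 202 CPM in HET, and 192, 201 and 212 CPM in HOM. All 10 HOM libraries lay above the lowest 3 WT libraries, but the ranges overlapped and the difference did not pass (log2 0.06, SE 0.0335, 95% interval -0.01 to 0.13, adjusted p = 0.816). Slc6a5 had values of 538, 566 and 596 CPM in WT, 550.2, 556 and 585 CPM in HET, and 510.4, 578 and 636 CPM in HOM, with HOM 3 the lowest. Between HOM and WT its log2 fold change was 0.04 (SE 0.0351, 95% interval -0.04 to 0.11, adjusted p = 0.843). Slc6a9, the glycine carrier found largely on glia, and Glra1, a subunit of the glycine receptor, had log2 fold changes of -0.02 and -0.01 in HOM against WT. The ratio of Slc17a6 to Slc32a1 in CPM was 1.24 ± 0.116 in WT (SD, n = 6), 1.21 ± 0.0822 in HET (n = 6) and 1.16 ± 0.0541 in HOM (n = 10), and its ranges overlapped.

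Somatostatin, encoded by Sst, marks a large class of excitatory dorsal horn neurons. Its promoter is shown because it was the only one of the 27 members with a promoter in the RefSeq table (GRCm38.p6) that held TGACGTCA, the full palindrome of the cyclic AMP response element, which reads the same on both strands. That motif was in 1.55% of the 32851 promoters, all searched over the 250 bases before the start. The shorter form TGCGTCA, searched on both strands, was in 1.75% of promoters and in 5 of the 27 members: Slc17a6, Tac1, Cck, Slc6a5 and Nos1. Cck and Tac1 are shown beside Sst as peptide genes that hold it. Each sequence runs 5′ to 3′ on the gene's own strand, at chr16:23890845-23891094 (minus) for Sst, chr9:121495695-121495944 (minus) for Cck and chr6:7554811-7555060 (plus) for Tac1. Capitals mark the motif, which begins 48, 49 and 199 bases before the RefSeq start. In GENCODE M21 the Sst gene reaches to 23890958 and the Tac1 gene begins at 7554879. Both positions are within the stretches shown, and the Sst motif lies inside that gene.
Sst: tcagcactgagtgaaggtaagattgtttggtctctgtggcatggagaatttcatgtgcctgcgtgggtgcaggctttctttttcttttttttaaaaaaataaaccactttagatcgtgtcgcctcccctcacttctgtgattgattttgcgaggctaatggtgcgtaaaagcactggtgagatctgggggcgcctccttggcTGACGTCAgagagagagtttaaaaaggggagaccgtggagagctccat
Cck: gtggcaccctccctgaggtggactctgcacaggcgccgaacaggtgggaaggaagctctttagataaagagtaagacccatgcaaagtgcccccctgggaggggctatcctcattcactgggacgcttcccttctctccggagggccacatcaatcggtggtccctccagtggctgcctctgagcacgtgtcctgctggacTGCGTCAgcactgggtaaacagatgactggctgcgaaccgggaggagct
Tac1: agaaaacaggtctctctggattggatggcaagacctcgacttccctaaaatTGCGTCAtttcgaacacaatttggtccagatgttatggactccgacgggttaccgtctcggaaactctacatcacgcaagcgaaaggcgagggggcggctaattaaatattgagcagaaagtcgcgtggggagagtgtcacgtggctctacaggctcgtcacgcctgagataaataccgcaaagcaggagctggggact
A match describes the letters and not a site in use.

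Sst had a lowest, median and highest value of 61.0, 71.0 and 74.7 CPM in WT, 66.2, 71.3 and 80.7 CPM in HET, and 63.9, 69.0 and 85.1 CPM in HOM. The groups overlapped, and the log2 fold change in HOM against WT was 0.04 (SE 0.0586, 95% interval -0.08 to 0.16, adjusted p = 0.896). Tac1, which encodes the precursor of substance P, had values of 18.1, 19.6 and 21.9 CPM in WT, 15.98, 21.6 and 23.7 CPM in HET, and 16.3, 19.6 and 22.01 CPM in HOM. Its estimate in HOM against WT was 0.0 (SE 0.0712, 95% interval -0.15 to 0.15, adjusted p = 0.999). HET 4 was the lowest of all 22 libraries for Tac1.

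Nts encodes neurotensin. It had the smallest p of the members in HOM against HET, where its log2 difference was -0.18 (SE 0.0832, 95% interval -0.36 to -0.01, unadjusted p = 0.0361, adjusted p = 0.528). The values were 10.9, 12.7 and 14.3 CPM in WT, 12.1, 12.6 and 14.8 CPM in HET, and 8.18, 11.8 and 13.3 CPM in HOM. The difference did not pass. The lowest library was HOM 3, and without it the difference was -0.14 (adjusted p = 0.576). In HOM against WT the difference was -0.15 (SE 0.0831, adjusted p = 0.816). Tac2, the precursor of neurokinin B, had values of 19.99, 22.1 and 25.1 CPM in WT, 22.1, 24.9 and 25.3 CPM in HET, and 18.2, 22.5 and 25.9 CPM in HOM. It was 0.10 higher on the log2 scale in HET than in WT (SE 0.0735, adjusted p = 1) and differed by -0.12 between HOM and HET (SE 0.0656, adjusted p = 0.626).

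Cck encodes cholecystokinin, found in excitatory neurons of the deep dorsal horn. Its values were 14.9, 17.8 and 22.9 CPM in WT, 17.8, 19.9 and 22.01 CPM in HET, and 17.1, 20.2 and 23.1 CPM in HOM, all overlapping. Its difference was 0.14 in HOM against WT (SE 0.0791, 95% interval -0.02 to 0.30, adjusted p = 0.816). Within the title prefixes 39992, 40411 and 40412 the difference was -0.07, 0.04 and 0.20, and with the prefix in the fit it was 0.06. Reln, a secreted glycoprotein of dorsal horn neurons, and Nmu, the precursor of neuromedin U, had differences of 0.05 and -0.18 in HOM against WT, with adjusted p = 0.902 and 0.816. Neither passed.

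Npy and Pdyn, the precursors of neuropeptide Y and dynorphin, mark inhibitory dorsal horn neurons that restrain itch and touch. Npy had a lowest, median and highest value of 9.96, 10.8 and 15.3 CPM in WT, 9.82, 10.7 and 14.9 CPM in HET, and 9.03, 10.2 and 12.5 CPM in HOM. The highest values came from WT 2, HET 4 and HET 2, and the groups overlapped. The log2 difference was -0.16 in HOM against WT (SE 0.099, 95% interval -0.36 to 0.04, adjusted p = 0.816), and between HOM and HET it was -0.19 (SE 0.0992, adjusted p = 0.607). Without WT 2 the first was -0.06, and without HET 4 the second was -0.11. Pdyn and Gal, the galanin gene, differed by -0.02 and -0.04 in HOM against WT, with adjusted p = 0.944 and 0.946.

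Among the transcription factors, Pax2, which directs dorsal neurons to an inhibitory fate, had the smallest p of the members in HOM against WT. Its lowest, median and highest values were 26.2, 28.2 and 31.1 CPM in WT, 28.1, 29.1 and 33.2 CPM in HET, and 28.5, 31.3 and 34.0 CPM in HOM. All 10 HOM libraries lay above the WT median, and the ranges overlapped. The log2 difference was 0.14 (SE 0.044, 95% interval 0.05 to 0.23, unadjusted p = 0.00419), and it did not pass across all genes (adjusted p = 0.644). It was 0.11, 0.15 and 0.11 within the 3 prefixes (5 HOM against 1 WT, 3 against 2, and 2 against 3), and it ran from 0.12 to 0.16 when each library was left out. These are subsets of the same libraries in which Pax2 had the smallest p. For each E196K allele the log2 difference was 0.07 (SE 0.0213, adjusted p = 0.486).

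Lmx1b and Tlx3, which together hold dorsal neurons in the glutamatergic state, had log2 differences of 0.02 each in HOM against WT, with 95% intervals of -0.07 to 0.11 and -0.22 to 0.27. Neither interval excluded 0. Rorb, a nuclear receptor of deep dorsal horn neurons, had values of 29.3, 33.4 and 36.2 CPM in WT, 27.7, 29.9 and 36.9 CPM in HET, and 27.4, 31.1 and 32.3 CPM in HOM. It had a difference of -0.11 (SE 0.0557, 95% interval -0.22 to 0.01, unadjusted p = 0.0648, adjusted p = 0.816). Zfhx3, with medians of 50.3, 47.3 and 48.9 CPM in WT, HET and HOM, differed by -0.09 between HET and WT (SE 0.0503, adjusted p = 1), and Ebf2, with medians of 29.1, 29.6 and 27.3 CPM, by -0.10 between HOM and HET (SE 0.0581, adjusted p = 0.621). None of these passed. Maf, Gata3 and Lhx1 had differences of 0.17, -0.10 and 0.04 in HOM against WT. Nos1, the neuronal nitric oxide synthase, and Pvalb, a calcium buffer of fast-firing neurons, had -0.05 and -0.01.

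Penk and Grp split the libraries by Xist, and so also by the Y-linked Ddx3y, which only the 9 libraries without Xist held. Penk encodes the enkephalin precursor, an opioid of the dorsal horn, and Grp encodes gastrin-releasing peptide, a transmitter of the itch circuit. Penk was at 103 ± 5.79 CPM in the 13 libraries with Xist (SD; lowest 91.6, median 104, highest 113) and at 132 ± 4.77 CPM in the 9 without it (lowest 125, median 133, highest 139). Grp was at 4.60 ± 0.42 CPM with Xist (3.81, 4.70 and 5.15) and at 7.07 ± 0.659 CPM without it (6.41, 6.72 and 8.12). The 2 sets of libraries did not overlap for either gene, in the series as a whole, within any genotype or within any title prefix, although WT and the prefix 40411 each held only 1 library without Xist.

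With the log Xist level, scaled so that 1 unit separates the means of both sets, as a term beside genotype in the edgeR fit, a comparison added after seeing the data, Penk and Grp were the 2 of 32 members that passed, where 45 genes or 0.265% of all those tested did. Penk was higher without Xist by 0.35 on the log2 scale, a fold of 1.28 (SE 0.0339, 95% interval 0.28 to 0.42, adjusted p = 4.87e-07). Grp was higher by 0.57, a fold of 1.48 (SE 0.0644, 95% interval 0.43 to 0.70, adjusted p = 9.44e-06). Of the 45 genes, 15 lay on the X or Y chromosome and 30 elsewhere, and among genes elsewhere Penk and Grp had the 2 smallest p. Sets that did not overlap were seen for 19 genes, 0.112% of those tested, and 7 of these lay off the sex chromosomes. In 8 genes, 0.0471%, the libraries without Xist were all higher, and Penk and Grp were 2 of them. Both members also passed under each of the 29 settings tried, including each library left out. Without HOM 3, which held the lowest Penk value, the differences were 0.34 and 0.58.

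**Figure D3:**
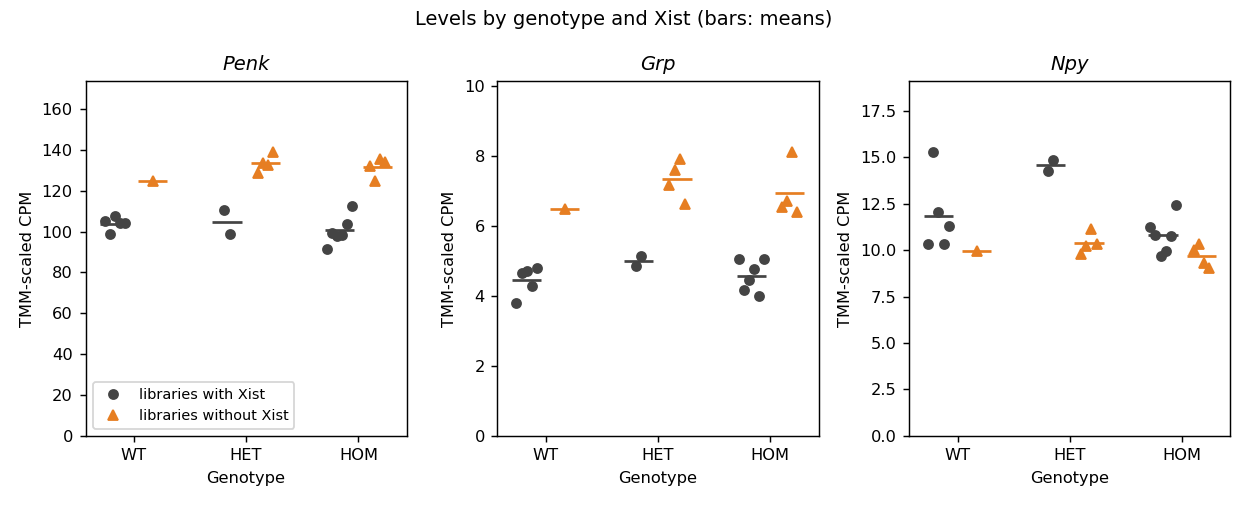
TMM-scaled CPM (y axis) of Penk, Grp and Npy in each library by genotype (x axis), with circles for the 13 libraries with Xist, triangles for the 9 without it and bars for the means. For Penk the highest circle is at 113 CPM and the lowest triangle at 125 CPM, and for Grp at 5.15 and 6.41 CPM, while the symbols of Npy overlap.

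The genotypes differed in their share of such libraries: 1 of 6 WT, 4 of 6 HET and 4 of 10 HOM libraries lacked Xist. The genotype values of both genes moved with it. In WT, HET and HOM, Penk had medians of 105, 131 and 108 CPM and Grp of 4.67, 6.91 and 5.04 CPM. The log2 difference of HET against WT was 0.21 for Penk (SE 0.103, 95% interval -0.01 to 0.42, unadjusted p = 0.0597, adjusted p = 1) and 0.45 for Grp (SE 0.167, 95% interval 0.11 to 0.80, unadjusted p = 0.012, adjusted p = 1). With Xist in the fit these became 0.02 and 0.16, neither of which passed (adjusted p = 0.998 for each). Among libraries with Xist alone, where 2 HET were set against 5 WT, the mean differences were 0.01 and 0.16. Among those without Xist, where 4 HET were set against 1 WT, they were 0.10 and 0.17. For Penk in HOM against WT the difference went from 0.07 (SE 0.0926, adjusted p = 0.873) to -0.02 with Xist in the fit (adjusted p = 0.903).

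The other members showed smaller differences between these sets of libraries. At an unadjusted p below 0.05 there were 6 of 32 members, 18.8%, beside 13.6% of all genes: Penk, Grp, Npy, Reln, Sst and Pax2. Npy was lower without Xist by 0.27 on the log2 scale, at 11.8 ± 1.89 CPM with Xist and 10.0 ± 0.618 CPM without it. It did not pass with edgeR (adjusted p = 0.106) and passed with DESeq2. In 3 libraries with Xist, WT 2, HET 2 and HET 4, Npy exceeded 14 CPM, and all other libraries were below 12.5 CPM. Gad1 differed by 0.01 and Slc32a1 by 0.02 (SE 0.024 and 0.0303). Summed cord Hox markers ran from 126 to 177 CPM with Xist and from 132 to 177 CPM without it, HOM 3 left out, and summed neuron markers from 5074 to 5779 and from 5342 to 5909 CPM. The Hox sum can hide opposite shifts of its genes, as in HOM 3, where it was 149 CPM. The part of these markers in the Penk and Grp differences was not tested. Penk lies at chr4:4133531-4138819 on the minus strand of GRCm38, where an antisense gene, A830012C17Rik, overlaps it.

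Several members differed with the title prefix at an unadjusted p. Prefix 39992 was set against the other prefixes with genotype in the fit, also a comparison added after seeing the data. It had 13 of 32 members at an unadjusted p below 0.05, 40.6%, beside 10.3% of all genes. Of the 13, 10 were excitatory, and they went both ways. Slc17a6, Slc17a8, Cck and Zfhx3 were higher, and Slc17a7, Lmx1b, Tac2, Nts, Ebf2 and Nmu were lower. The count of members was 8 without WT 1, the only library of this prefix that was not HOM, and 14 without HOM 3. At an adjusted p below 0.05 there were 0 members with edgeR, where 59 genes or 0.348% passed, and 1 with DESeq2, Cck. Cck was at 21.8 to 23.1 CPM in the prefix 39992 without HOM 3, which was at 19.0 CPM, and at 14.9 to 22.01 CPM in the other 16 libraries. Its log2 difference was 0.26 (SE 0.0629, adjusted p = 0.0791). Without HOM 3 it was 0.30 and passed (adjusted p = 0.016), as it did without WT 5 (0.24). Slc17a7 also passed without HOM 3. It was at 4.62 ± 0.692 CPM in the 5 other libraries of prefix 39992 and at 6.58 ± 0.937 CPM in the 16 libraries of the other prefixes.

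Lower in the prefix 39992, but short of the threshold, were Ebf2 (25.7 ± 1.30 CPM, n = 6, beside 29.2 ± 1.98 CPM, n = 16), Nmu (3.07 ± 0.438 and 3.896 ± 0.363 CPM) and Lmx1b (19.7 ± 0.353 and 21.2 ± 1.14 CPM). No member had ranges in this prefix and in the other libraries that failed to overlap, against 0.189% of all genes. The log2 differences of these 3 were -0.17, -0.32 and -0.13, with adjusted p = 0.142, 0.178 and 0.205 by edgeR. The cord Hox markers did not all move with this prefix. Hoxc10 was at 50.8 to 58.2 CPM there and at 27.6 to 38.0 CPM elsewhere, with no overlap. Hoxa10, outside the marker list and named after its values were seen, was at 35.3 to 42.0 CPM there and at 19.5 to 27.05 CPM elsewhere. Hoxd10 (means 28.9 and 14.8 CPM) and Hoxd9 (24.5 and 16.9 CPM) were higher there, with ranges that overlapped. Without HOM 3, Hoxd9 was at 23.0 to 28.6 CPM there and at 14.9 to 18.5 CPM elsewhere, with no overlap. Hoxc8 (30.5 and 37.9 CPM), Hoxc6 (16.1 and 17.3 CPM) and Hoxc9 (12.5 and 13.0 CPM) were not higher. Without HOM 3 the means of these genes in this prefix were 34.9, 17.6 and 13.3 CPM. The part of these Hox genes in the member differences was not tested. Because 5 of the 6 libraries of this prefix were HOM and none was HET, the prefix and genotype can be told apart only in part.

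**Figure D4:**
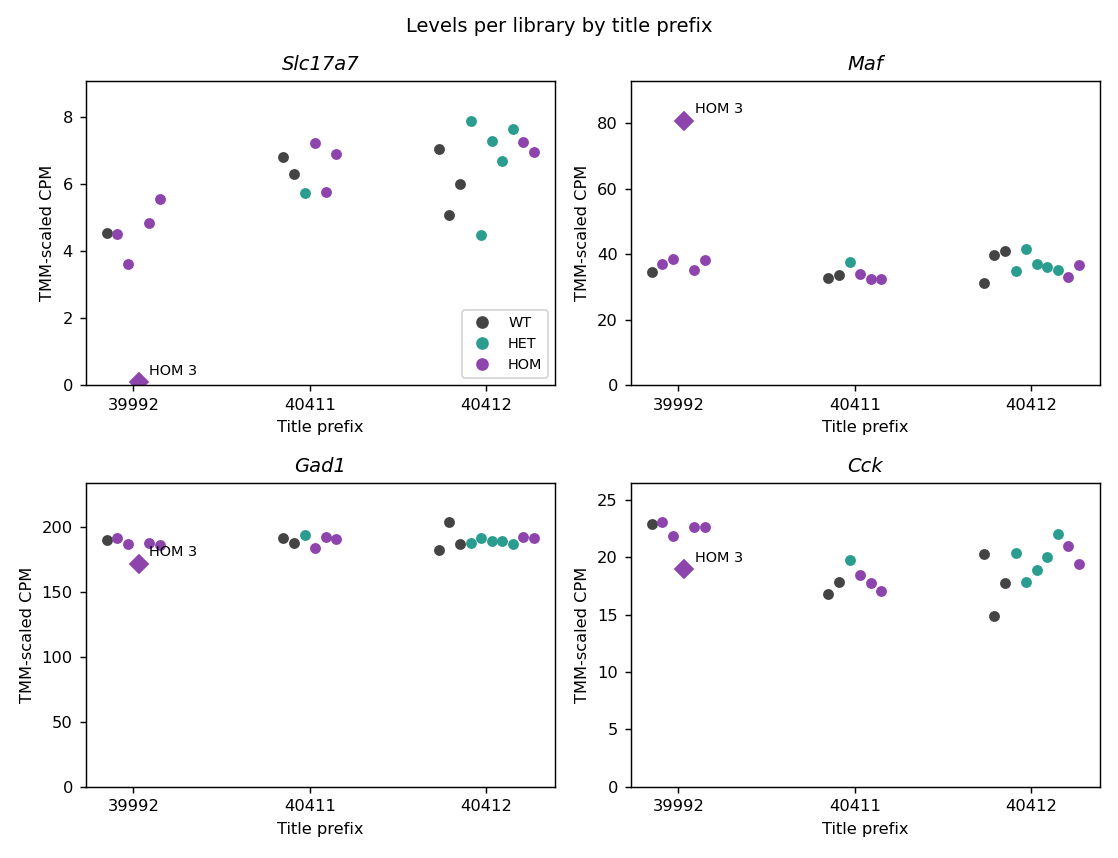
TMM-scaled CPM (y axis) of Slc17a7, Maf, Gad1 and Cck in each library by title prefix (x axis), coloured by genotype, with a diamond for HOM 3. HOM 3 is at 0.0912 CPM for Slc17a7 and 80.8 CPM for Maf, away from all others, and Cck is high in the rest of prefix 39992.

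The library HOM 3 lay outside the range of the other 21 for 15 of 32 members, 46.9%, beside 29.4% of all genes. Maf, a factor of deep dorsal horn neurons that other cell types also make, was at 80.8 CPM there and at 31.1 to 41.7 CPM elsewhere. Without HOM 3, Maf was at 35.3 ± 2.41 CPM in HOM (n = 9) and at 35.4 ± 3.99 CPM in WT (n = 6). Reln was at 191 CPM, above 168 CPM in the next library, and Gad1 at 172 CPM, below 183 CPM in the next. In the same library the summed Schwann cell markers were at 3480 CPM, where the others ran from 128 to 145 CPM. The cord Hox markers went both ways there. Hoxc8 was at 8.42 CPM (others 31.9 to 50.8), Hoxc6 at 8.48 CPM (13.2 to 20.2) and Hoxc9 at 8.51 CPM (9.96 to 14.8). Hoxd10 was above the others at 47.8 CPM (1.90 to 28.6), as was Hoxc10 at 58.2 CPM (27.6 to 55.8). Hoxd9 lay within them at 17.7 CPM. Summed neuron markers were at 4592.5 CPM, below 5074 to 5909 CPM in the others, and summed oligodendrocyte markers at 13525 CPM, below 16750 to 20296 CPM. Summed markers of fibroblasts and meninges were at 759 CPM, above 272 to 413 CPM in the others. The part of these in the member values was not tested. HET 4 was outside the other libraries for 7 members and 6.86% of all genes, among them the highest Glra1 and Pvalb and the lowest Tac1 and Pdyn, and it held the lowest Hoxd10, 1.90 CPM. WT 5 was also outside for 7 members, and for 22.5% of all genes.

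**Figure D5:**
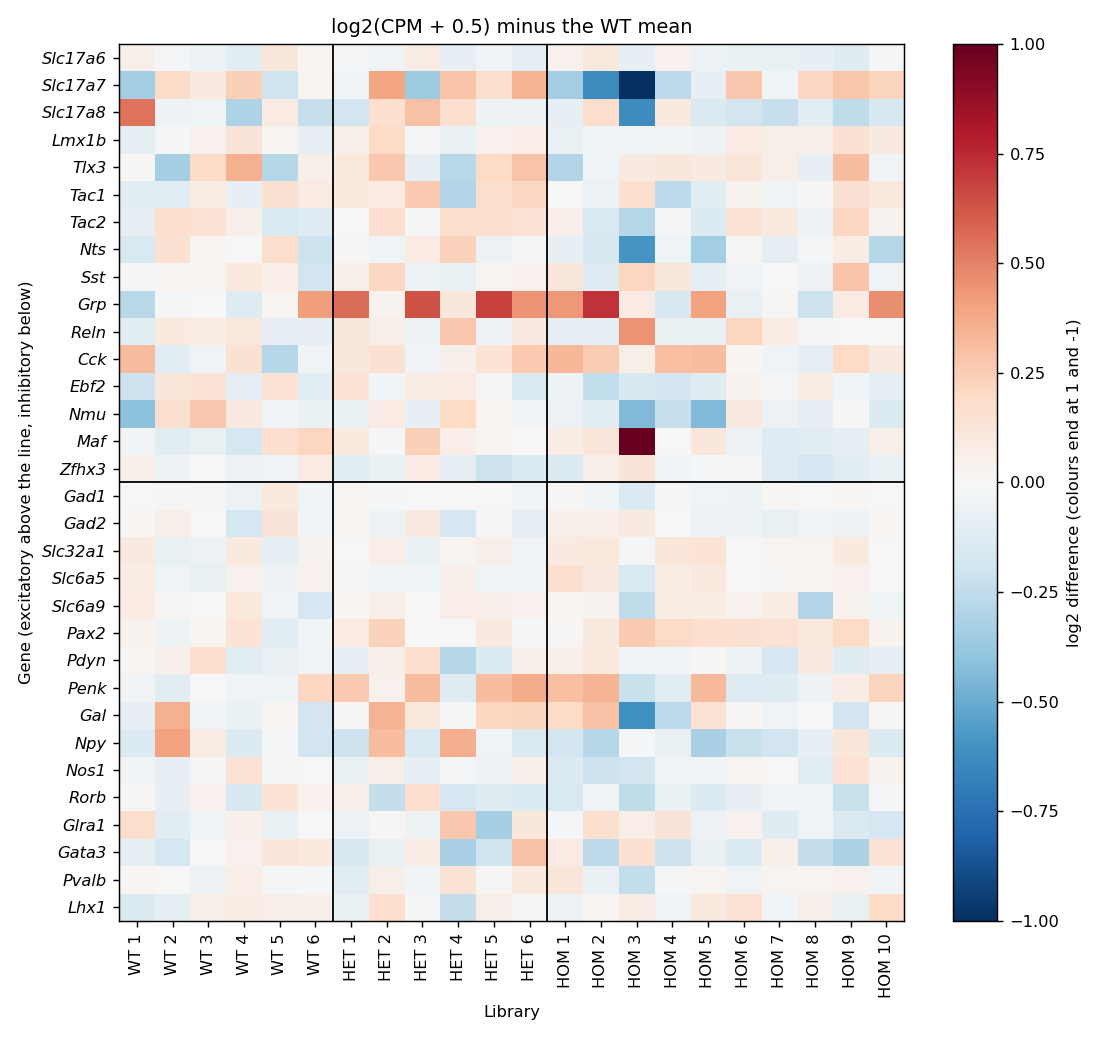
Difference of log2(CPM + 0.5) from the WT mean (colour) for the 32 genes (y axis) in the 22 libraries (x axis). HOM 3 shows the strongest colours, Slc17a7 low and Maf high, Grp and Penk alternate within HET and HOM, and Gad1, Slc32a1 and Slc6a5 stay pale throughout.

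The members also varied together to different degrees. Over all 22 libraries Slc32a1 and Slc6a5 had Pearson r = 0.74 and Spearman rho = 0.835 (permutation p = 7e-05 and 1e-05, the second the smallest that 100000 permutations can give; adjusted p = 0.00049 and 7e-05 over 7 relations). Without the 2 libraries farthest from the median of Slc32a1 r was 0.708, and within the 3 prefixes it was 0.85, 0.909 and 0.658. Lmx1b and Tlx3 had r = 0.601 and rho = 0.575 (permutation p = 0.00307 and 0.00582, adjusted p = 0.00716 and 0.0204). Without the farthest 2 their r was 0.613, and within prefixes r ran from 0.615 to 0.816 and rho from 0.371 to 0.685. In prefix 40411, with 6 libraries, r was 0.816 and rho 0.371 (permutation p = 0.0986 and 0.497). Both pairs kept their direction in each of these subsets.

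Nts and Tac2 had r = 0.624 and rho = 0.481 (permutation p = 0.00178 and 0.0251, adjusted p = 0.00623 and 0.0587), and r was positive in each subset, at 0.904, 0.389 and 0.146 within the prefixes. Without the 2 libraries farthest from the Nts median r was 0.343 (permutation p = 0.138), and without HOM 3 it was 0.447 (permutation p = 0.0426). At an adjusted p below 0.05 the pair passed by r and not by rho. Gad1 and Gad2 had r = 0.22 and rho = 0.313 (permutation p = 0.32 and 0.156, adjusted p = 0.535 and 0.273), and r was 0.614 without HOM 3. Slc17a6 and Slc32a1 had r = -0.085 and rho = -0.069 (permutation p = 0.703 and 0.757, adjusted p = 0.82 and 0.883), with r of 0.449, -0.608 and -0.75 within the prefixes. Because Penk fell into separate sets, Tac1 and Penk were related only within them, with r = 0.266 over the 13 libraries with Xist and rho = 0.181 (permutation p = 0.382 and 0.554, adjusted p = 0.535 and 0.776). Over the 9 without it r was 0.012 and rho 0.033 (exact permutation p = 0.975 and 0.948, adjusted p = 0.975 and 0.948). Without the 2 libraries farthest from the Tac1 median r was 0.11 and 0.522. The points of each pair share the library's depth and scaling.

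Genes that act with the members were counted in 5 lists. Of the glutamate receptor genes 22 of 22 were tested, of the GABA and glycine receptors and their anchors 22 of 22, of the peptide receptors 22 of 22, of other interneuron lineage factors 34 of 35, and of other dorsal horn markers 15 of 16. In HOM against WT, HET against WT and HOM against HET 0 genes of each list passed with edgeR in either direction, and at an unadjusted p below 0.05 each list held between 0 and 2. The other dorsal horn markers held 2 of 15 in HOM against WT, beside 5.91% of all genes, and 2 of 15 in HOM against HET, beside 8.79%. The glutamate receptors held 2 of 22 in HOM against WT. Among the smallest p in HOM against WT were those of Grik5, a kainate receptor subunit (log2 0.13, SE 0.0507, adjusted p = 0.816), and Grin1, the shared subunit of NMDA receptors (0.09, SE 0.0358, adjusted p = 0.816). In the other lists they included those of Slc12a5, the neuronal chloride extruder (0.08), Gabrg1 (-0.14), the neurokinin receptor Tacr3 (-0.13), the opioid receptor Oprd1 (-0.11), the lineage factor Neurod2 (0.14), Calb2, a calcium buffer (0.15), and Cbln2 (-0.09). None passed.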

How the data were processed

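The authors deposited RSEM expected counts, TPM and FPKM for each of 22 libraries of polyA RNA. Bowtie2 2.2.0 and RSEM 1.2.12 are named per the submitters' processing notes; for build, annotation and strandedness the setting was not given in the sources used here. FPKM values, as deposited, were not used. Between 14.41% and 16.23% of expected counts in a library were not whole, and all were rounded. Genes were filtered by filterByExpr, scaled by TMM and tested by the quasi-likelihood test of edgeR 4.0.16 in R 4.3.3, over all 22 libraries, with Benjamini-Hochberg adjustment over 16974 genes and a threshold of 0.05. Scaled counts served to compare libraries, and the deposited TPM to compare genes. DESeq2 1.42.0, limma 3.58.1 (voom, and limma-trend on log2(TPM + 1)), other scaling, filters, covariates and omitted libraries were alternatives. Correlations used log2(CPM + 0.5) and 100000 permutations (SciPy 1.17.1). Gene positions were from GENCODE M21 (GRCm38), and promoters from RefSeq (GRCm38.p6). Scripts were tested on simulated counts. The genes named were all 32 members and, in each wider list, the 2 genes with the smallest p in HOM against WT, of which 1 is not reported here. The members and lists were chosen with earlier results of these data known. Replicate numbers follow accession order and only name the libraries.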

Additional observations from a re-analysis of the deposited data

Results flagged for a closer look

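In 8 of 96 groups (each member in each genotype) the highest or lowest library stood far from the others by Dixon's test, where chance gives about 1 in 20. HOM 3 accounted for 4: Slc17a7 at 0.0912 CPM (next 3.63), Maf at 80.8 CPM (next 38.4), Reln at 191 CPM (next 162) and Gad1 at 172 CPM (next 184). HOM 3 also held the Schwann cell genes, whose part in these values was not tested.

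WT 6, the only WT library without Xist, was high for Penk at 125 CPM (next 107) and for Grp at 6.48 CPM (next 4.79). HET 4 was low for Tac1 at 15.98 CPM (next 20.8), and WT 2 was high for Gal at 4.81 CPM (next 3.72).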

How the results depend on the processing

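No paired analysis was possible because the replicate numbers only name the libraries. No member passed in a genotype comparison under any alternative. For genes called, DESeq2 gave 28 in HOM against WT and 76 in HOM against HET; in the latter TPM gave 11, the title prefix 10, and prefix with Xist 11. The Xist term gave 156 with DESeq2 and 25 with TPM, and prefix 39992 gave 184 (1 member) and 35. With 1 library left out, HOM against HET ranged from 10 (without HET 3) to 39 (without HOM 10), the Xist term from 22 (without HOM 2) to 220 (without WT 5), and prefix 39992 from 27 (without HOM 2 or HOM 7) to 161 (without HOM 3), with 0 to 2 members. The cause was not tested.

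Members near 0 changed sign, none past the threshold. In HOM against WT, Tac1 was 0.0 with DESeq2, RLE scaling or only the 2 genotypes and -0.02 with Xist; TPM gave Slc17a6 0.01, Gad1 0.07 and Gad2 0.03; Penk was -0.02 with Xist and -0.01 with prefix and Xist. In HET against WT, TPM gave Slc17a6 0.02, Gad1 0.08 and Slc6a5 0.03, and Xist gave Slc32a1 0.0. In HOM against HET, the prefix gave Gad2 -0.01, Xist gave Slc17a6 0.01 and Sst -0.03, and prefix with Xist gave Gad1 0.0, Tac1 0.02 and Sst -0.02. Leaving out 1 library moved Tac1 from -0.03 to 0.03 and Gad2 from -0.05 to 0.02 in HOM against WT. In HET against WT it moved Npy from -0.05 to 0.13, Slc32a1 from -0.01 to 0.02, Sst from -0.01 to 0.05 and Gad1 from -0.02 to 0.02. In HOM against HET it moved Sst from -0.02 to 0.05 and Slc17a6 from -0.02 to 0.02.

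The correlation of Gad1 with Gad2 was 0.476 without the 2 farthest libraries, 0.614 without HOM 3, and -0.444 and 0.749 in prefixes 39992 and 40412. Slc17a6 with Slc32a1 was 0.449 and -0.75 there. Slc32a1 with Slc6a5 was 0.85 in 39992. Nts with Tac2 was 0.343 without the 2 farthest, 0.389 in 40411 and 0.146 in 40412. Lmx1b with Tlx3 was 0.615 in 39992 and 0.816 in 40411. Each prefix held 6 or 10 libraries, which limits these values, and counts of 3 to 30 in the lowest libraries limit Slc17a7, Slc17a8 and Gata3.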
